A study of Mus musculus with 6 samples.

Results

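The comparison set beta cells lacking the transcription factor FoxO1 against wild-type beta cells, both from 12-month-old female mice that had been through 3 pregnancies. A gene was compared when its symbol lay at 1 locus, neither library listed it at 0 and at least 1 library held 5 FPKM. FPKM counts sequenced fragments per kilobase of transcript and per fragment total of the library. These conditions kept 8163 of the 23087 genes at 1 locus. Of the rest, 14916 were under 5 FPKM in both libraries and 8 were listed at 0 in one and at 5 FPKM or more in the other.

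RNA of beta cells sorted by flow cytometry from purified islets was measured in 6 libraries, 1 for each genotype at 3 months nulliparous, 12 months nulliparous and 12 months multiparous. All mice were female, of a mixed 129J-C57BL/6 background, on a standard chow diet and a 12 h light cycle. The mutant mice, called IKO, carried floxed FoxO1 alleles and RIP-Cre, a Cre recombinase under the rat insulin promoter, which confines deletion to cells in which that promoter is active. The labels call the controls wild type (WT) and do not say whether they carried Cre. The multiparous WT library bears the name NGT and the multiparous IKO library the name DM. The effect of genotype and of whatever these names mark cannot be told apart between the 2 libraries. The labels give no number of animals per library. The depth of each library is unknown, because the files hold no counts. With 1 library a side no difference could be tested, so every value describes these libraries and has no replicate error.

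FoxO1 is a transcription factor that insulin signalling keeps out of the nucleus through phosphorylation by Akt. It enters the nucleus when insulin signalling is weak or the cell is under metabolic stress, and binds a core motif shared by the forkhead family. In mouse beta cells its loss is known to favour dedifferentiation, a loss of mature function in which progenitor genes and Aldh1a3 come on, and Gc, a vitamin D-binding protein otherwise restricted to alpha cells within the islet, has been studied in that setting.

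The libraries of the multiparous pair were close. Their FPKM values summed to 280346 in IKO and 277640 in WT, and their log2 values correlated at r = 0.991 across genes, which are not independent replicates. The median log2 ratio of FPKM + 1, IKO over WT, was -0.01, its median size was 0.081, and 96.0% of genes lay within 1.25-fold. The 3-month pair was closer still, with a median size of 0.0497, and the 12-month nulliparous pair was wider, at 0.291. The 12-month nulliparous WT library stood apart. It correlated with the other libraries at 0.955 to 0.961, against 0.982 to 0.993 among the rest. Counts of genes outside the nulliparous range are therefore also given without it, and ranges of single genes only in some cases. Insulin and amylin messages (Ins1, Ins2 and Iapp), the defining products of beta cells, had a listed value of 0 throughout the 6 libraries, whereas the beta cell markers G6pc2, Slc30a8 and Mafa were at 818, 162 and 50.3 FPKM in the multiparous IKO library. A value of 0 can be a failed estimate, and the insulin genes were not analysed further.

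Of the 8163 genes, 8 (0.098%) were at least 2-fold higher and 10 (0.123%) at least 2-fold lower in IKO on the scale of FPKM + 1. At 1.5-fold the numbers were 34 (0.417%) and 33 (0.404%). Those reported here are named in the paragraphs that follow. Adding 1 understates the ratio of low genes. Genes with a mean under 10 FPKM gave 35 of these 67, at a rate of 1.35% of the 2603 compared at that level, against 0.397% of those between 10 and 30 FPKM and 1.16% of those at 100 FPKM or more. Close to the 1.5-fold boundary, the ubiquitin ligase subunit gene Fbxo2 had a log2 ratio of 0.58 and the ribosomal protein gene Rps3a1 one of -0.58, both just outside it. Mtmr11, at 0.59, and Fam171b, at -0.60, were just inside. At the 5 FPKM floor, BC003965 was just inside at 5 FPKM in its higher library and Cyb561d2 just outside at 4.995.

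**Figure D1:**
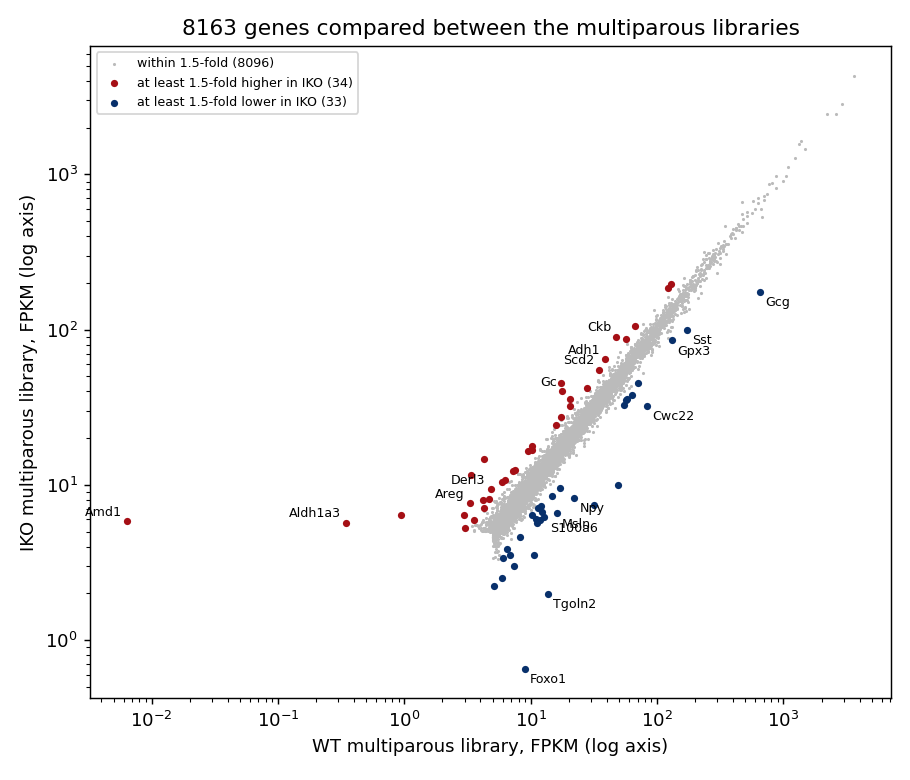
FPKM of each of the 8163 genes in the multiparous WT library (horizontal log axis) and the multiparous IKO library (vertical log axis), with 1 point a gene. The 34 genes at least 1.5-fold higher in IKO are red, the 33 at least 1.5-fold lower are blue, and most points lie along the diagonal.

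The deleted gene and the genes tied to it come first. Foxo1 (chromosome 3, 52268337 to 52350109, mm10) was at 8.93 FPKM in the multiparous WT library and 0.656 in IKO. Its values in the nulliparous libraries were 5.67 and 7.62 FPKM in WT against 0.410 in IKO at both ages, so the genotypes did not overlap. FPKM does not show which exons the remaining fragments came from. The related factor Foxo3 was at 5.46 and 5.23 FPKM in WT and IKO, and Foxo4, at 3.67 and 3.49, was under the floor. The 25 genes compared within 10 Mb of Foxo1 had a median log2 ratio of -0.04 with 0 past 1.5-fold.

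Genes known as FoxO targets differed little. Of 26 listed, 14 were compared, 5 of them above 0, with a median log2 ratio of -0.05 and 0 past 1.5-fold. Over all genes compared 45.5% were above 0 and the median was -0.01, against which this and the later list counts are to be read. The share above 0 was 54.8% of the genes compared in the 3-month pair and 53.9% in the 12-month nulliparous pair. Txnip, the thioredoxin-interacting protein that glucose induces in beta cells, was at 10.8 FPKM in WT against 15 in IKO, and both were below all 4 nulliparous libraries, which held 15.5 to 33.0 FPKM. Eif4ebp1, an inhibitor of cap-dependent translation, was at 71.1 FPKM in WT against 56.0 in IKO. The insulin signalling genes Irs2 and Insr were at 7.41 and 6.23 FPKM in WT, against 6.90 and 5.73 in IKO.

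The dedifferentiation marker Aldh1a3 (chromosome 7, 66390893 to 66427477), which makes retinoic acid from retinaldehyde, was the highest ratio among genes without close copies in the genome. It was at 0.348 FPKM in the multiparous WT library, the lowest of the 6 libraries, and at 5.70 in IKO, the highest. The nulliparous values were 0.624 and 0.776 in WT, against 2.18 and 3.31 in IKO, so all 3 IKO libraries lay above all 3 WT libraries. Of the 13 listed dedifferentiation and progenitor genes 3 were compared, and 2 were above 0. The second was Serpina7, a thyroxine-binding protein, at 25.1 FPKM in WT against 36.3 in IKO, after 26.7 against 27.2 at 3 months and 21.2 against 41.3 in the older nulliparous pair. The list's median log2 ratio was 0.52, and -0.02 with no floor on FPKM. Neurog3 and Sox9, factors of endocrine and pancreatic progenitors, were at 0.461 FPKM and 0 in IKO, and Hes1, a Notch target, was at 6.05 against 6.15 in WT.

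Gc (chromosome 5, 89417511 to 89457898) was at 17.7 FPKM in the multiparous WT library and 40.0 in IKO, a log2 ratio of 1.13. The nulliparous libraries held 34.3 and 32.9 FPKM in WT, against 37.4 and 59.7 in IKO. Thus the IKO value lay within the nulliparous range, and it was the WT value that lay below every other library. The same placement held for 13 of the 34 higher genes, Gc included, in which WT alone lay outside the range of the 4 nulliparous libraries. IKO alone lay outside for 7, both for 6 and neither for 8. Among the 33 lower genes IKO alone lay outside for 15, WT alone for 8, both for 6 and neither for 4. Over all genes compared the shares were 13.7% for IKO alone, 17.9% for WT alone, 22.7% for both and 45.8% for neither. The higher and lower genes were picked by the ratio of these same 2 values. That choice favours values outside the range, so a share above that of all genes shows nothing further. Without the nulliparous WT library that stood apart, the higher genes split into 7, 8, 17 and 2, and the lower genes into 15, 7, 9 and 2. The order is again IKO alone, WT alone, both and neither. Over all genes compared the shares were then 18.8%, 17.5%, 43.8% and 19.9%. Against these, WT alone held for 23.5% of the higher genes and both for 50%.

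**Figure D2:**
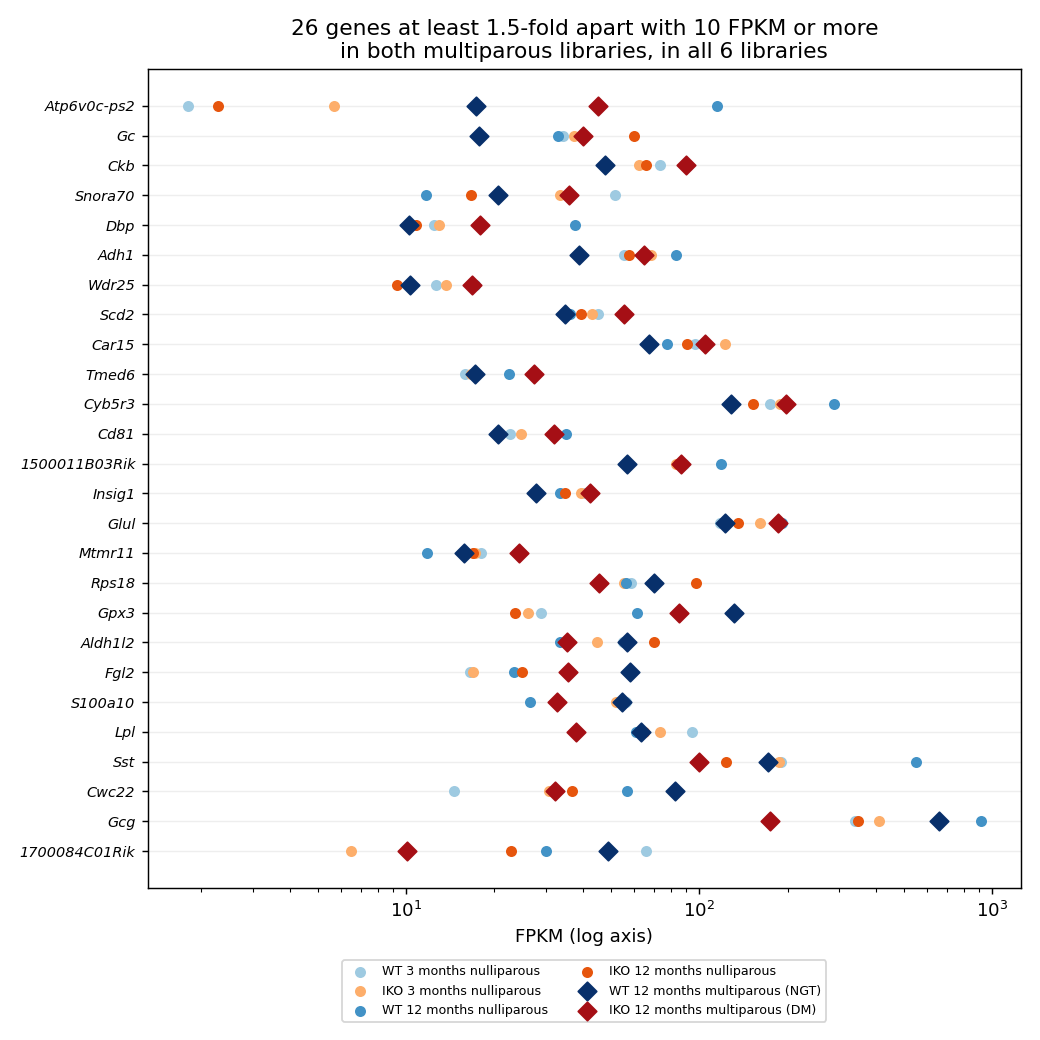
FPKM (log axis) in each of the 6 libraries for the 26 genes at least 1.5-fold apart with 10 FPKM or more in both multiparous libraries, ordered by their log2 ratio. Diamonds are the multiparous libraries and circles the nulliparous ones; for Gc the WT diamond at 17.7 FPKM lies left of all other points, and for Sst the IKO diamond at 99.7 FPKM does.

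Genes of sterol and fatty acid synthesis, which the SREBP factors switch on when membrane sterol is low, were mostly higher in multiparous IKO. Of 23 compared, 19 were above 0 (45.5% over all genes), the median log2 ratio was 0.29, and 3 were past 1.5-fold. In the 3-month pair 8 of the same 23 were above 0 with a median of -0.04, and in the 12-month nulliparous pair 10 with a median of -0.01. The 3 pairs share no library, and the difference between them was not tested.

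Scd2, a desaturase that makes monounsaturated fatty acids, was at 34.9 FPKM in WT against 55.3 in IKO, with 36.3 to 45.1 in the nulliparous libraries. Insig1, which holds the SREBP escort protein in the endoplasmic reticulum, was at 27.7 and 42.4 FPKM, with 33.5 to 40.7 in the nulliparous libraries. For both of these genes WT was below and IKO above the nulliparous range. Fdps, the farnesyl diphosphate synthase, was at 14.8 FPKM in WT against 21.8 in IKO, both inside a range of 14.7 to 36.7. Without the nulliparous WT library that stood apart its range was 14.7 to 19.1, and the IKO value lay above it.

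Over the whole sterol list, the WT value lay below all 4 nulliparous libraries for 11 of 23 genes (47.8%, against 16.4% of all genes) and the IKO value above all of them for 8 (34.8%, against 19.6%). Without the library that stood apart these counts were 15 and 13, against 2102 and 2551 of all 8163 genes. The SREBP genes Srebf1 and Srebf2 were at 21.8 and 17.9 FPKM in WT, against 30.7 and 22.3 in IKO. Sqle, an enzyme of sterol synthesis, differed little, at 103 and 101 FPKM. The fatty acid elongase gene Elovl6 had the lowest log2 ratio of the list, at -0.30.

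**Figure D3:**
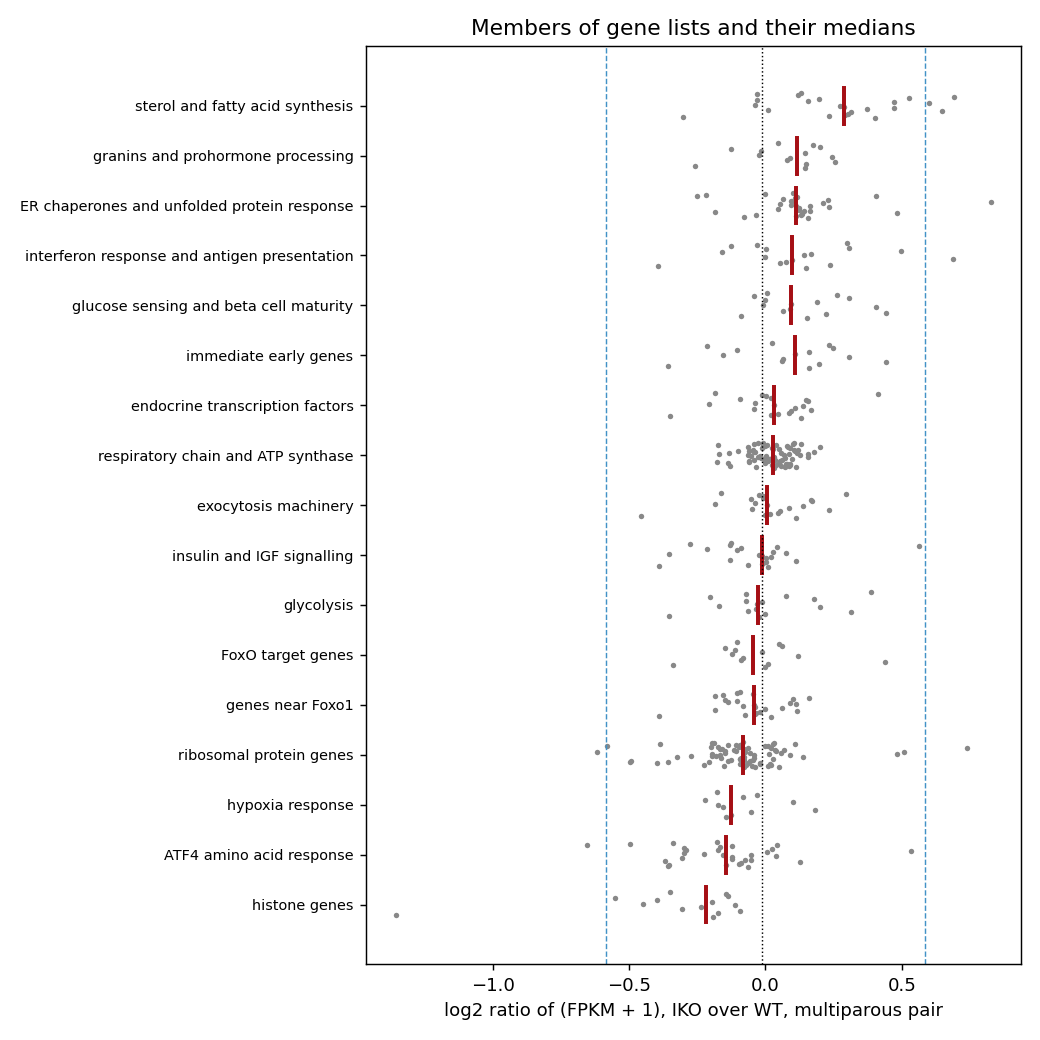
Log2 ratio of FPKM + 1, IKO over WT, in the multiparous pair for each member of 17 gene lists (grey points) with the list's median (red bar). The dotted line is the median of all genes, the dashed lines mark 1.5-fold, and the sterol list has a median of 0.29 while all 14 histone genes lie below 0.

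Protein folding genes of the endoplasmic reticulum (ER) differed by small amounts mostly in 1 direction. All 31 listed genes were compared, 25 were above 0, and the median log2 ratio was 0.11. Derl3, a membrane protein that passes misfolded proteins out of the ER, was at 4.86 FPKM in WT against 9.39 in IKO, a log2 ratio of 0.83, and the nulliparous libraries held 3.06 to 4.44 FPKM. Fkbp11, a peptidyl-prolyl isomerase of the ER, was at 57.4 and 80.6 FPKM, and Sdf2l1, a partner of the chaperone BiP, at 163 and 217. BiP itself (Hspa5) was at 1234 and 1273 FPKM.

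The genes for the stress sensors were mixed. Ern1 (IRE1) was at 78.4 FPKM in WT against 67.3 in IKO and Atf6 at 34.4 and 30.1, while Atf6b, a relative of Atf6, was at 34.6 and 37.5 and Eif2ak3 (PERK) at 22.975 and 22.962. Ero1l, an ER oxidase, was at 99.8 and 83.6 FPKM. Both multiparous libraries were high in this list. The WT value lay above all 4 nulliparous libraries for 19 of the 31 genes (61.3%, against 24.1% of all genes) and the IKO value for 21 (67.7%, against 19.6%). Without the library that stood apart these counts were 27 and 28, against 2907 and 2551 of all 8163 genes. The list's median was -0.01 in the 3-month pair, with 14 of 30 above 0, and -0.06 in the 12-month nulliparous pair, with 12 of 30.

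The ER stress element, a promoter motif bound by ATF6 and XBP1 in which CCAAT and CCACG stand 9 bases apart, was looked for on both strands of promoter windows reaching from 250 bases before to 50 bases after the start site. It was found in 9 of the 26 listed ER genes with a window (34.6%), against 0.137% of 27025 genes with a window and 0.225% of 6211 genes compared. The list is of known response genes, so this share describes the list and says nothing about these libraries. Derl3 was among the 9, and its window is shown because it had the highest ratio in the list. The window (chr10:75893148-75893447, plus strand, RefSeq on GRCm38.p6) holds the element on the minus strand, 156 bases before the start site, and the element is in capitals.
Derl3: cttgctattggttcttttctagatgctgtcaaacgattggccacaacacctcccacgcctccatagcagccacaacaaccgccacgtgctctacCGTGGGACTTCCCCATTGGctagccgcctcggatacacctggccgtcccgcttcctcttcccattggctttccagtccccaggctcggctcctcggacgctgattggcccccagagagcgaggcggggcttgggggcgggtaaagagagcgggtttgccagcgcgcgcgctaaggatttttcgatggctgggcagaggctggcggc
The sterol regulatory element TCACNCCAC was in 1 of 15 sterol genes with a window (Hmgcs1), against 1.42% of the genes compared. A match is a description of letters in this window and shows no binding.

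ATF4 is the factor that an amino acid shortage or the kinase PERK induces, and its targets make and import amino acids and charge transfer RNAs. Of 31 ATF4 response genes compared, 25 were lower in multiparous IKO, with a median log2 ratio of -0.15 and 1 past 1.5-fold. Aldh1l2, a folate enzyme of mitochondria, was at 56.5 FPKM in WT against 35.5 in IKO. Ppp1r15a, also called GADD34, which restores translation after stress, was at 61.8 and 43.5 FPKM, and Shmt2, the mitochondrial serine hydroxymethyltransferase, at 40.6 and 31.2. Ddit3 (CHOP), a factor tied to stress-induced death, was at 170 and 132 FPKM.

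Atf4 itself was at 332 FPKM in WT against 320 in IKO. Cbs, which makes cystathionine, stood out in the other direction, at 23.3 and 34.2 FPKM, both under the nulliparous range of 38.7 to 55.0. The IKO value lay below all 4 nulliparous libraries for 15 of the 31 genes (48.4%, against 16.8% of all genes). Without the library that stood apart this count was 20, against 2558 of all 8163 genes. In the 3-month pair 3 of 30 were above 0 with a median of -0.10, and in the 12-month nulliparous pair, which uses the library that stood apart, 21 of 31 were above 0 with a median of 0.09. Ppp1r15a had nearly the same ratio at 3 months, at 69.6 FPKM in WT against 48.9 in IKO.

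The letters TGATGNAA, the core of the element that ATF4 binds with C/EBP factors, were in 9 of the 25 listed ATF4 genes with a window (36%), against 4.51% of genes with a window and 2.56% of those compared. As with the ER genes, this share describes a list of known response genes and not these libraries. Asns, asparagine synthetase, is a well-studied ATF4 target and shows the element close to its start, so its window is given (chr6:7693160-7693459, minus strand, RefSeq on GRCm38.p6), with the element, 23 bases before the start site, in capitals. It was chosen after its values were seen, which were 173 FPKM in WT against 156 in IKO.
Asns: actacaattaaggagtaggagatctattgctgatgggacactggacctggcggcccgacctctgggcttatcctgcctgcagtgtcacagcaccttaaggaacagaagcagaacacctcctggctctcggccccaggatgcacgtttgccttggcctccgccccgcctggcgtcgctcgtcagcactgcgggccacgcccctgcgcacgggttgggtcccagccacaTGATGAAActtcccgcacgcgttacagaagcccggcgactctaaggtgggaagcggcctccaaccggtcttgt

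**Figure D4:**
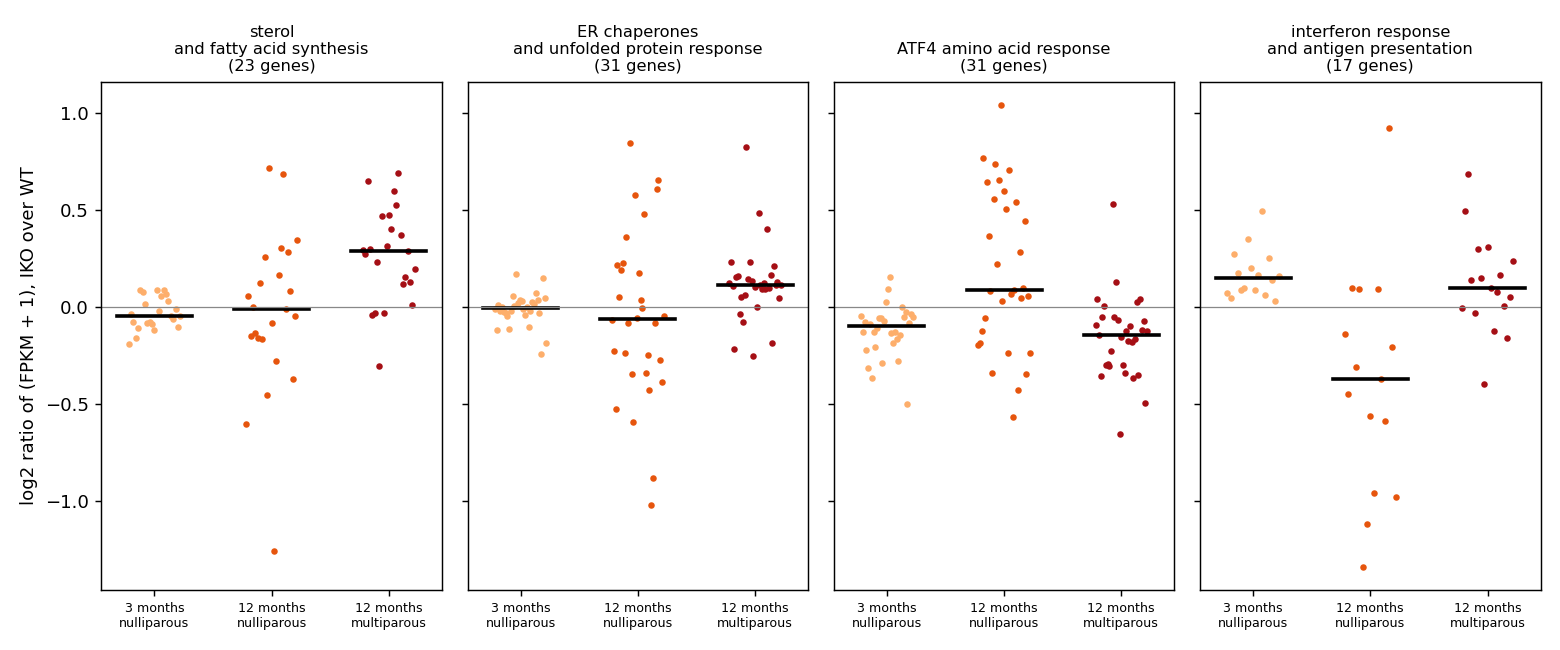
Log2 ratio of FPKM + 1, IKO over WT, of the members of 4 gene lists (points) in the 3-month, 12-month nulliparous and 12-month multiparous pairs, with the median of each (black bar), leaving out members not compared in a pair. The sterol list sits at -0.04, -0.01 and 0.29 and the ATF4 list at -0.10, 0.09 and -0.15, and points spread widest in the 12-month nulliparous pair.

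Interferon and antigen presentation genes leaned upward in the multiparous pair, with 12 of 17 compared above 0 and a median log2 ratio of 0.10. With the trends with transcript length and GC content across genes removed, 10 of 17 were above 0 and the median was 0.04. Irf7, the master factor of the interferon response, was at 4.69 FPKM in WT against 8.16 in IKO, the highest of the 6 libraries. Irf7 had the same order at every stage, at 3.70 FPKM in WT against 5.64 in IKO at 3 months and 2.35 against 4.17 in the older nulliparous pair. In that older pair both values were under the 5 FPKM floor, so it was not compared there. B2m, the light chain of MHC class I, was at 94.9 and 134 FPKM, and Usp18, which dampens interferon signalling, at 8.58 and 10.9. Gbp8, a guanylate-binding protein also induced in islets of pregnant mice, went the other way, at 9.72 and 7.14 FPKM.

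At 3 months all 16 compared members of the interferon list were above 0, with a median of 0.15, and in the 12-month nulliparous pair 4 of 15 were, with a median of -0.37. Other innate immune genes past 1.5-fold were Ifitm2, an antiviral membrane protein, at 7.46 FPKM in WT against 12.4 in IKO, and Cfb, complement factor B, at 5.91 and 10.5. Immune cell markers were mixed. They summed to 24.5 FPKM in WT against 22.8 in IKO over 12 genes, mostly through C1qa, at 8.42 and 6.83, and Cd68, at 7.81 and 7.01. The leukocyte gene Ptprc was at 0.234 and 0.101. The neutrophil genes S100a8 and S100a9 were higher in IKO, at 0.0844 and 1.58 FPKM in WT against 0.510 and 3.94. The part of immune cells in these values was not tested.

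Histone genes, whose replication-dependent messages mostly lack a poly-A tail, were all lower in multiparous IKO. The 14 compared had a median log2 ratio of -0.22, from -1.36 for Hist2h2bb to -0.09, and 1 passed 1.5-fold. Hist2h2bb was at 10.7 FPKM in WT against 3.56 in IKO, Hist1h4j at 5.62 and 3.52, Hist1h1e, a linker histone, at 5.43 and 3.71, and Hist1h4h at 8.99 and 6.59. Histone genes have near-identical copies, so how fragments were divided among them is uncertain, and poly-A selection captures only part of their RNA. At 3 months 8 of 12 were above 0, with a median of 0.02. The genes Pcna and Ccnd1, which serve DNA replication and the G1 phase, were at 25.8 and 11.3 FPKM in WT, against 22.7 and 13.8 in IKO.

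Genes of glucose sensing and beta cell maturity had 11 of 15 above 0, a median log2 ratio of 0.09 and 0 past 1.5-fold. Slc30a8, the zinc transporter of insulin granules, was at 122 FPKM in WT against 162 in IKO, and Ucn3, a hormone of mature beta cells, at 101 and 125. Slc2a2, the main glucose transporter of mouse beta cells, was at 37.5 and 51.3. Granins and prohormone processing enzymes had 10 of 14 above 0 and a median of 0.12, with the granule protein Chgb at 1331 and 1578 FPKM and Pam, the enzyme that amidates peptides, at 317 and 265. The WT value lay below all 4 nulliparous libraries for 8 of the 10 beta cell markers compared (80%), and the IKO value also for 8. These were not the same 8, since Ucn3 was below in WT only and Npy in IKO only. Over all genes the shares were 16.4% in WT and 16.8% in IKO. Without the library that stood apart the marker counts were 8 in WT and 9 in IKO, against 2102 and 2558 of all 8163 genes.

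The transcription factors of endocrine cells (21 compared, median 0.03), the exocytosis machinery (21, median 0.00), the ion channels (16, median 0.01) and the secretion-modulating receptors (14, median 0.05) had 0 genes past 1.5-fold. Within them Gcgr, the glucagon receptor, was at 11.9 and 17.1 FPKM in WT and IKO, Vipr1, a receptor for vasoactive intestinal peptide, at 33.2 and 24.0, and Syt4, a synaptotagmin that raises the calcium threshold of secretion, at 123 and 88.9.

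Insulin and IGF signalling genes had 9 of 23 above 0 and a median of -0.01. Igf1r, the IGF1 receptor, was at 51.2 FPKM in WT against 38.7 in IKO, and Igfbp5, which binds IGFs, at 4.27 and 6.78. Glycolysis (16 compared, median -0.03), the citric acid cycle (31, median 0.01) and the respiratory chain (74, median 0.03) were flat. The citric acid cycle and anaplerosis list held Fbp1, the gluconeogenic fructose bisphosphatase, which was at 11.8 FPKM in WT against 5.96 in IKO, below all 5 other libraries. Hypoxia genes had 2 of 11 above 0, with a median of -0.13, and lactogen response genes 6 of 13, with a median of -0.08. As in the ER list, many WT and IKO values lay above all 4 nulliparous libraries. For glycolysis this held for 12 of 16 in WT and 11 in IKO, and for hypoxia for 10 of 11 and 9. Over all genes the shares were 24.1% and 19.6%. Without the library that stood apart the counts were 13 and 11, and 10 and 9, against 2907 and 2551 of all 8163 genes. Ribosomal protein genes had 20 of 76 above 0 and a median of -0.08, with Rpl26 at 9.48 and 16.5 FPKM and Rps18 at 70.2 and 45.4. Ribosomal protein genes have many processed copies, so single values are uncertain.

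Smaller lists were mixed. Immediate early genes, which report recent stimulation, had 11 of 15 above 0 and a median of 0.11, which was 0.05 with the length and GC trends removed, with Ier2 at 29.5 FPKM in WT against 40.4 in IKO. All 4 vitamin D handling genes compared were above 0, with a median of 0.24, and besides Gc they included the receptor gene Vdr, at 23.6 and 28.6 FPKM. Retinoid handling had 4 of 5 above 0, with Aldh1a3 and Rbp4 at opposite ends. V-ATPase subunits had 7 of 17 above 0 (median -0.02), antioxidant enzymes 14 of 28 (median 0.00), genes of NAD synthesis and sirtuins 6 of 10 (median 0.01), cell cycle genes 4 of 9 (median -0.06), imprinted genes 4 of 11 (median -0.04) and polyamine genes 3 of 8 (median -0.04).

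Other islet hormones separated from one another. Glucagon (Gcg), the hormone of alpha cells, was at 655 FPKM in WT against 175 in IKO, and the 3 nulliparous libraries other than the one that stood apart held 340 to 410. The IKO library was therefore below, and the WT library above, these 3. The nulliparous WT library that stood apart held 913, above both. At 3 months Gcg had the opposite order, at 340 FPKM in WT against 410 in IKO. Somatostatin (Sst), the hormone of delta cells, was at 172 and 99.7 FPKM, with 124 to 549 in the nulliparous libraries. Pancreatic polypeptide (Ppy) went the other way, at 303 and 361 FPKM. In RNA of sorted cells, fewer contaminating cells of a type and less hormone message per cell cannot be told apart.

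The rest of the alpha cell list did not follow Gcg. Its sum was 791 FPKM in WT against 352 in IKO, but without Gcg it was 136 and 177, and without Gcg and Gc 119 and 137. Of its 13 members 7 reached 1 FPKM in the pair. The alpha cell factors Irx1 and Irx2 were at 0.190 and 1.32 FPKM in WT, against 0.0718 and 1.40 in IKO. In the delta cell list Rbp4 accompanied Sst, at 11 and 6.01 FPKM, while Sstr3 was at 48.4 and 51.2 and the delta cell factor Hhex at 0.289 and 0.213. The part these cells have in the values of Gcg, Sst and Rbp4 was not tested.

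Npy, a neuropeptide found in islet cells, was at 22.1 FPKM in WT against 8.25 in IKO, with 14.5 to 48.3 in the nulliparous libraries. Msln, the mesothelial surface protein mesothelin, was at 16 and 6.57 FPKM. It was the 1 mesothelial marker present, with Upk1b, Upk3b and Wt1 at 0 in both libraries. Markers of other tissues were low in both libraries of the pair. The 17 acinar genes summed to 6.83 FPKM in WT against 5.05 in IKO, the 8 endothelial genes to 4.49 and 4.55, the 8 mesenchymal genes to 1.36 and 0.440 and the 5 Schwann cell genes to 3.56 and 4.603. The ductal list summed to 536 and 602 through Krt7 and Spp1, while its factor Sox9 was at 0 in both.

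Among the remaining higher genes, Ckb, the brain-type creatine kinase that buffers ATP, was at 47.7 FPKM in WT against 89.8 in IKO, with 62.3 to 91.5 in the nulliparous libraries. Adh1, an alcohol dehydrogenase that oxidises retinol, was at 39.0 and 64.6 FPKM, with 55.4 to 83.5. Glul, glutamine synthetase, was at 123 and 185, and Cyb5r3, which reduces cytochrome b5, at 128 and 198. For Ckb, Adh1 and Cyb5r3 it was again the WT library that lay below all 4 nulliparous ones, with IKO inside their range. Without the library that stood apart, the IKO values of Ckb and Cyb5r3 lay above that range.

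Areg, the epidermal growth factor family member amphiregulin, was at 3.31 FPKM in WT against 7.64 in IKO, above all other libraries. Rasgrf2, which activates Ras and Rac, was at 2.98 and 6.40. Dbp, an output gene of the circadian clock, was at 10.3 and 17.9 FPKM and reached 37.8 in the nulliparous WT library that stood apart; the labels give no hour of collection. Among surface and secretory proteins, Tmed6, a p24 cargo protein, was at 17.2 and 27.3 FPKM. Cd81, a tetraspanin described on immature mouse beta cells, was at 20.6 and 32, and Car15, a carbonic anhydrase, at 67.2 and 105. The proteoglycan genes Spock1 and Sdc3 were at 6.21 and 4.28 FPKM in WT, against 10.8 and 7.15 in IKO. The WT value was the lowest of the 6 libraries for Car15, Cd81, Spock1 and Sdc3, and not for Tmed6.

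Completing the higher genes, Spsb1, an adaptor of a ubiquitin ligase, was at 2.99 FPKM in WT against 5.29 in IKO, and Mtmr11, of the myotubularin family, at 15.7 and 24.2. Wdr25, a WD repeat gene, was at 10.3 and 16.8. The uncharacterised genes 1500011B03Rik, 5830417I10Rik and LOC100504608 were at 56.6, 3.57 and 4.15 FPKM in WT, against 86.6, 5.97 and 7.95 in IKO. The long noncoding RNA AA465934 was at 0.942 FPKM in WT against 6.40 in IKO, with 3.05 to 21.5 in the nulliparous libraries. The pseudogene Atp6v0c-ps2 was at 17.3 and 45.1. Amd1, for polyamine synthesis, was at 0.00636 and 5.83 FPKM and also near 0 in the 3-month IKO library, at 0.00585. Amd1 has close copies in the genome. The row of Atp6v0c-ps2 (chromosome 17, 24163865 to 24169395) overlaps that of Atp6v0c (24163866 to 24169429), which was at 218 FPKM in WT against 191 in IKO. How fragments were divided between these overlapping rows is not known. The values of Amd1 and Atp6v0c-ps2 are therefore uncertain.

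Among the lower genes, S100a10, which carries annexin A2 and channels to the membrane, was at 54.3 FPKM in WT against 32.8 in IKO, and S100a6, its relative, at 12.8 and 6.21. Lpl, lipoprotein lipase, was at 63.3 and 38.1 FPKM, below all 4 nulliparous libraries in IKO. Fabp5, a fatty acid carrier, was at 6.02 and 3.37. The fatty acid oxidation and uptake list that holds Fabp5 had 11 of 22 genes above 0, a median of 0.00 and 1 past 1.5-fold, and Cpt1a, the carnitine transferase that admits fatty acids to mitochondria, was at 10.9 and 7.97 FPKM.

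Fgl2, a fibrinogen-like protein, was at 58.1 FPKM in WT against 35.7 in IKO, and Gpx3, the secreted glutathione peroxidase, at 132 and 85.2. For both, each multiparous library was above all 4 nulliparous ones, which held 16.6 to 24.9 FPKM for Fgl2 and 23.5 to 61.2 for Gpx3. The heat shock genes Hspa1a and Hspa1b followed the same order, at 11.1 and 12.3 FPKM in WT, against 5.65 and 6.70 in IKO, with 2.41 to 5.61 over both genes in the nulliparous libraries. Hspa1a and Hspa1b are near-identical neighbours, so fragments cannot be assigned to one of them with certainty. In these 4 genes the multiparous IKO value lay between the nulliparous libraries and multiparous WT.

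Nnat, the imprinted ER peptide neuronatin, was at 5.09 FPKM in WT against 2.24 in IKO, and Hamp, the iron hormone hepcidin, at 6.86 and 3.53. C2cd4a, at a locus known from human type 2 diabetes genetics, was at 6.43 and 3.85. Gnpda1, a glucosamine-6-phosphate deaminase, was at 17.2 and 9.55 FPKM, and Schip1, a cytoskeletal adaptor, at 5.90 and 2.52. Zfp365 was at 7.31 and 3.00, Iqgap2, a scaffold protein, at 11.4 and 7.12, and Fam171b at 10.2 and 6.36. Gnpda1 and Schip1 were at their highest in multiparous WT and their lowest in multiparous IKO.

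Lower genes with uncertain values were Tgoln2, at 13.6 and 1.99 FPKM, and the splicing factor gene Cwc22, at 82.8 and 32.3, both with close copies. The transcript 1700084C01Rik was at 48.9 FPKM in WT against 10.035 in IKO, with 6.505 in the 3-month IKO library. The small nucleolar RNA genes Snord22, Snora81 and Snora78 were lower in IKO, at 31.8, 12.2 and 8.28 FPKM in WT, whereas Snora17, Snora16a and Snora70 were higher, at 14.7, 11.6 and 35.9 in IKO. All 6 span under 300 bases, a length at which FPKM divides by few positions. Of the 9 loci under 300 bases that were compared, 6 (66.7%) were past 1.5-fold, against 0.821% of all genes.

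On chromosome 3, which carries Foxo1, lay 6 of the 33 lower genes (18.2%) and 3 of the 34 higher ones, against 4.84% of all genes compared. The 6 were Foxo1, Fabp5, Schip1, S100a6, S100a10 and Hist2h2bb. The nearest to Foxo1 was Schip1, at 68064802 to 68626482, beyond the 10 Mb in which 0 of 25 genes passed 1.5-fold. S100a6, S100a10 and Hist2h2bb lay between 90612894 and 96270192, and Fabp5 near the start at 10012585. The 3 higher genes were Mtmr11, inside the same stretch at 96161970 to 96171718, 5830417I10Rik at 88777057 to 88829371 and Adh1 at 138277645 to 138290691.

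The core letters of the forkhead motif, GTAAACA on either strand, were looked for in the same windows. They were in 0 of 22 higher genes and 2 of 20 lower genes with a window, against 2.91% of the genes compared and 4.05% of all genes with a window. The 2 were Mid1 and Rbp4, and both windows are shown because these genes were also lower in IKO in the other pairs. Mid1 (chromosome X), a ubiquitin ligase of microtubules, was at 14.8 FPKM in WT against 8.53 in IKO, after 27.0 against 14.3 at 3 months and 14.9 against 8.72 in the older nulliparous pair. Rbp4, the plasma retinol carrier, was at 14.3 FPKM against 12.3 in the 3-month pair and 16.4 against 7.45 in the older nulliparous pair. The motif is in capitals, on the minus strand 115 bases before the start of Mid1 (chrX:169684949-169685248, plus strand) and on the gene's own strand 241 bases before the start of Rbp4 (chr19:38125272-38125571, minus strand), both from RefSeq on GRCm38.p6.
Mid1: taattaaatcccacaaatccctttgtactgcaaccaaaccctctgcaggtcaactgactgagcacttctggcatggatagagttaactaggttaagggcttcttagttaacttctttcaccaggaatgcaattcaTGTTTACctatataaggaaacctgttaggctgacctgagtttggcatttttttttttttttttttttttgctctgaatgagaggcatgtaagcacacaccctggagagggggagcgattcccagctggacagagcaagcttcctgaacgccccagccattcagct
Rbp4: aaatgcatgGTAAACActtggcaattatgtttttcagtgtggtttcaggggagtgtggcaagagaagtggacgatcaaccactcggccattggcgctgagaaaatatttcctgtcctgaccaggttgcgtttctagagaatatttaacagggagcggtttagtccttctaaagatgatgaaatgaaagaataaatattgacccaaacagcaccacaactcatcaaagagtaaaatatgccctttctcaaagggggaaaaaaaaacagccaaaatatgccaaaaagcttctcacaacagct
Windows that carry the motif do not show that FoxO1 binds there.

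The other genotype pairs share no library with the multiparous pair. Of the 34 higher genes 25 were compared at 3 months, and 16 were higher there too (64%), against 54.8% of all genes. Of the 33 lower genes 28 were compared at 3 months, and 20 were lower there too (71.4%, against 45.2%). At 1.5-fold in the same direction these numbers were 2 (8%, against 0.126%) and 5 (17.9%, against 0.151%), and in the opposite direction 2 and 4. The 2 higher genes past it the same way were Snora17 and Atp6v0c-ps2, whose row overlaps that of Atp6v0c. The 5 lower ones were Foxo1, 1700084C01Rik, Snora81, Mid1 and Msln. Without Foxo1 and loci under 300 bases 3 of 24 lower genes were left (12.5%), with 3 the opposite way. Of the higher genes 1 of 23 was left, with 1 the opposite way. In the 12-month nulliparous pair the same direction held for 15 of 29 higher genes (51.7%, against 54.9%) and 16 of 29 lower genes (55.2%, against 45.1%). Without Foxo1 and loci under 300 bases the lower genes shared it in 12 of 25 (48%). At 1.5-fold in that pair, 5 of the higher genes (17.2%, against 7.48%) were past it the same way and 6 the opposite way, and of the lower genes 12 (41.4%, against 9.86%) and 5.

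Ratios in the multiparous and 3-month pairs also leaned the same way with gene structure. Across genes the log2 ratio went with transcript length at a Spearman rho of -0.179 and with GC content at 0.373 in the multiparous pair, at -0.213 and 0.207 in the 3-month pair, and at 0.442 and -0.265 in the older nulliparous pair. The part of these trends in the shared directions was not tested. With them removed, the sterol list had 19 of 23 genes above 0 at a median of 0.25 and the ATF4 list had 3 of 31 above 0 at -0.18.

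**Figure D5:**
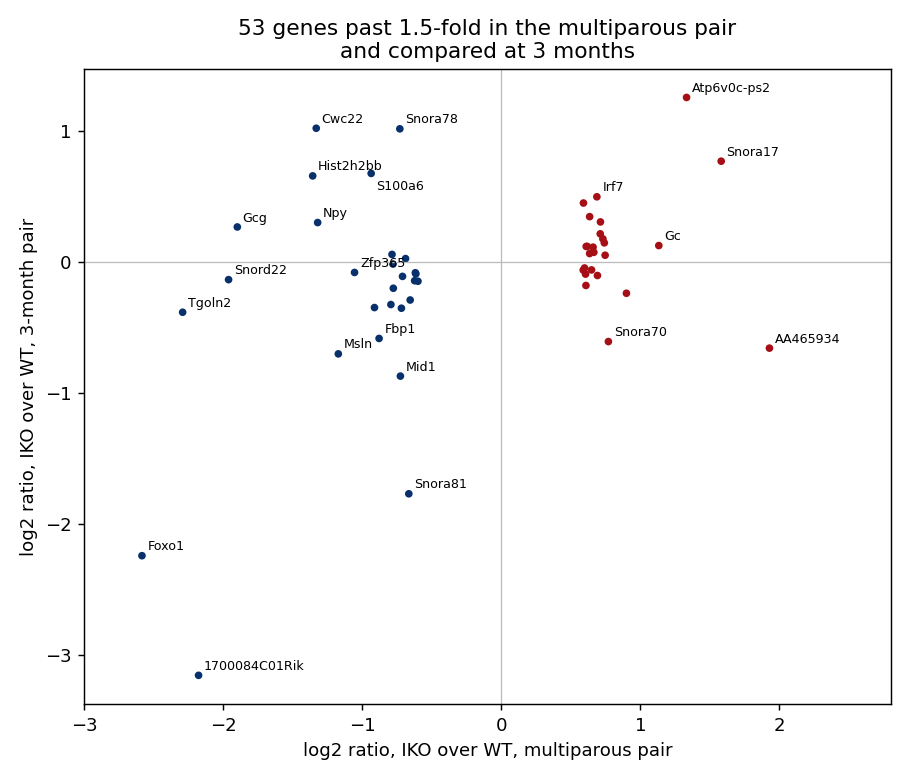
Log2 ratio of FPKM + 1, IKO over WT, in the multiparous pair (horizontal axis) and the 3-month pair (vertical axis) for the 53 genes past 1.5-fold in the multiparous pair and compared at 3 months. Foxo1, Mid1 and Msln are low on both axes, whereas Hist2h2bb, Cwc22 and S100a6 are low in the multiparous pair and high at 3 months.

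Of the 67 genes, 50 were compared in all 3 pairs and 16 had the same direction in all. Higher throughout were Car15, Cfb, Gc, Ifitm2, Snora17, Spock1 and Tmed6. Lower throughout were Foxo1, 1700084C01Rik, Gpx3, Mid1, Msln, Rbp4, Snora81, Snord22 and Sst. For Gc the log2 ratio was 0.13 in the 3-month pair, 0.84 in the older nulliparous pair and 1.13 after 3 pregnancies. Gc in IKO was lower in the multiparous library (40.0 FPKM) than in the older nulliparous one (59.7). In WT it was also lower, at 17.7 against 32.9 FPKM. For Aldh1a3, which was under the floor in both nulliparous pairs, the log2 ratio was 0.97, 1.28 and 2.31. The older nulliparous pair uses the WT library that stood apart.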

How the data were processed

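Per the file headers, the deposited values are FPKM, 1 column for each library. The labels' protocols describe directional poly-A selection and paired reads of 100 bases. The build mm10 and the tools TopHat, Cufflinks and Cuffdiff are those named in the submitters' processing notes, and versions and parameters are not given in the sources used here. An FPKM depends on the gene model, on the total of its library and on how fragments that match several copies were assigned.

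The log2 ratio of FPKM + 1 was computed with Python 3.11.15 and pandas 2.3.3. Symbols at several loci (260 symbols, 758 rows) were left out, and 27 rows whose symbol had become a date were not named. No test was run. The steps were checked on simulated data. Positions are in mm10 with 1 added to the table's starts, and promoter windows are from RefSeq on GRCm38.p6.

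The genes compared and the 47 gene lists were chosen with earlier results of these data known. Named genes are those past 2-fold, the 12 highest and 12 lowest ratios with 10 FPKM in both libraries, up to 4 largest and all past 1.5-fold in each list with 3 compared, and a set list. Others were chosen after their values were seen. Some genes and 1 list are not reported here.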

Additional observations from a re-analysis of the deposited data

Results flagged for a closer look

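Several genes past 1.5-fold in the multiparous pair had an opposite log2 ratio of at least 1.5-fold in another genotype pair. Each pair is 1 library a side, so none of these differences was tested. Against the 3-month pair they were Hist2h2bb, at -1.36 in the multiparous pair and 0.66 at 3 months, Cwc22, at -1.33 and 1.02, S100a6, at -0.94 and 0.68, and the small nucleolar RNA gene Snora78, at -0.73 and 1.02. Snora70, at 0.77 and -0.61, and AA465934, at 1.93 and -0.66, went the other way. Hist2h2bb and Cwc22 have close copies, and the 2 small nucleolar RNA genes are under 300 bases.

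Against the 12-month nulliparous pair, which uses the WT library that stood apart, they were Tgoln2, at -2.29 in the multiparous pair and 3.86 there, Zfp365, at -1.06 and 0.70, Aldh1l2, at -0.66 and 1.04, Rps18, at -0.62 and 0.79, and Iqgap2, at -0.61 and 0.74. Higher in the multiparous pair and lower there were Cyb5r3, at 0.62 and -0.91, Wdr25, at 0.66 and -0.82, Dbp, at 0.75 and -1.72, Atp6v0c-ps2, at 1.33 and -5.15, AA465934, at 1.93 and -2.10, and Amd1, at 2.76 and -0.59.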

How the results depend on the processing

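Counts are given as 2-fold higher, 2-fold lower, 1.5-fold higher and 1.5-fold lower, and were 8, 10, 34 and 33. With 0.1 FPKM added in place of 1 they were 9, 13, 42 and 39, and with 5 FPKM added 4, 7, 15 and 20. A floor of 1 FPKM gave 11, 15, 63 and 59, a floor of 10 FPKM 4, 8, 23 and 25, 5 FPKM in both libraries 2, 6, 21 and 23, and no floor 11, 15, 65 and 65. Keeping values at 0 gave 9, 17, 35 and 40. Median ratio scaling, scaling without the 20 highest genes, removal of the length and GC trend and keeping symbols at several loci moved each count by 2 or fewer, and 29 of the higher and 29 of the lower genes at 1.5-fold were shared once the trend was removed. No gene past 1.5-fold changed direction under the 11 alternatives. Of the other named genes Mafa, at -0.02 to 0.12, and Pdyn, at -0.03 to 0.00, were among those that crossed 0. The sterol list's median stayed between 0.21 and 0.31, the ER list's between 0.10 and 0.12, the ATF4 list's between -0.18 and -0.12, the histone list's between -0.29 and -0.14, the interferon list's between 0.04 and 0.14, the immediate early list's between 0.05 and 0.16, the hypoxia list's between -0.14 and -0.07 and the vitamin D list's between 0.12 and 0.27. No paired analysis was possible because each group held 1 library and the labels carry no replicate numbers. With no replicates and no counts, neither the spread between animals nor the counting error behind any value is known, and low genes are the least certain.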
